A study of Mus musculus with 27 samples.

Results

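Expression of 57 monocyte and macrophage genes was compared between donor monocyte-derived cells recovered from the non-inflamed small intestine 5 days and 1 day after transfer. The comparison holds every non-manipulated recipient of these 2 days, 4 mice at day 5 and 5 mice at day 1, which is 9 of the 27 samples of the study. Bone marrow monocytes of C57BL/6 WT donors were transferred into C57BL/6 CCR2-/- recipients, and non-manipulated recipients had no surgery. Donors and recipients were of the same kind in both groups, and by design the groups differed by the time the cells had spent in the recipient. The study pooled several experiments, and the labels do not give which mouse came from which. The part of the experiment in any difference was therefore not tested. The manipulated recipients used for contrast below had the same donors and the same CCR2-/- background, and their small intestine was surgically handled 1 day before transfer, which induces inflammation. RNA of 100 sorted donor-derived cells per mouse was turned into cDNA, amplified over 16 cycles with gene-specific primers and read on the NanoString nCounter, an instrument that tallies colour-barcoded probes one by one.

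CCR2 is the chemokine receptor through which Ly6C+ monocytes leave the bone marrow, so a recipient without it makes few monocyte-derived cells of its own in the gut. In the healthy intestine, incoming Ly6C+ monocytes are known to lose Ly6C, gain MHC class II, and become resident macrophages that express CX3CR1 and the regulatory cytokine interleukin-10. The panel holds genes of each of these steps together with cytokines, chemokines, receptors and transcription factors of myeloid cells.

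The 9 lanes held between 597997 and 1161520 counts of the 57 panel genes, housekeeping genes not included. Of the 57 genes, 53 were above background in all 9 mice, background being the mean plus 2 SD of a lane's negative-control probes. The paper sorted donor cells as CD64+ CD11b+ cells with low or intermediate CD11c, without the neutrophil marker Ly6G or the eosinophil marker SiglecF. Fcgr1, which encodes the macrophage marker CD64, and Csf1r, the receptor for the macrophage growth factor M-CSF, were above background in every one of the 9 mice. Because CD64 was part of the gate, detection of Fcgr1 is no separate evidence of cell identity. Of the markers of other cells that had been listed, Ccr7 of dendritic cells was measured and did not pass (log2 change 0.65 ± 0.71, SE, adjusted p = 0.585). The other listed dendritic markers, Zbtb46 and Flt3, were on the panel but blank. The paper excluded 10 panel genes for low detection in all samples. Of 11 markers of neutrophils, eosinophils, lymphocytes, epithelium and stroma, 0 had values. The sorting gate was set to select monocytes and macrophages of the donor, and the part of any other cells that passed it was not tested. Levels are given as scaled counts, the count of a lane relative to the geometric mean of its housekeeping genes Actb, Gapdh and Rpl19. In a pool of sorted cells, fewer cells of a type and less RNA per cell cannot be told apart.

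Between day 1 and day 5, 11 of the 57 genes passed the test (19.3%; edgeR quasi-likelihood F test, adjusted p below 0.05). Of these, 6 were higher at day 5 (10.5%) and 5 were lower (8.77%), and 19 genes (33.3%) had an unadjusted p below 0.05. Chil3 fell 157-fold, and Ccl7 had the largest rise among the 57 genes in this fit. Over all genes the median log2 change was -0.07, with 26 genes above and 31 below 0. The values of the day 1 and day 5 mice did not overlap for 12 genes (21.1%), 8 with day 5 higher (14%) and 4 with day 5 lower (7.02%), and 7 of these 12 also passed the test.

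**Figure D1:**
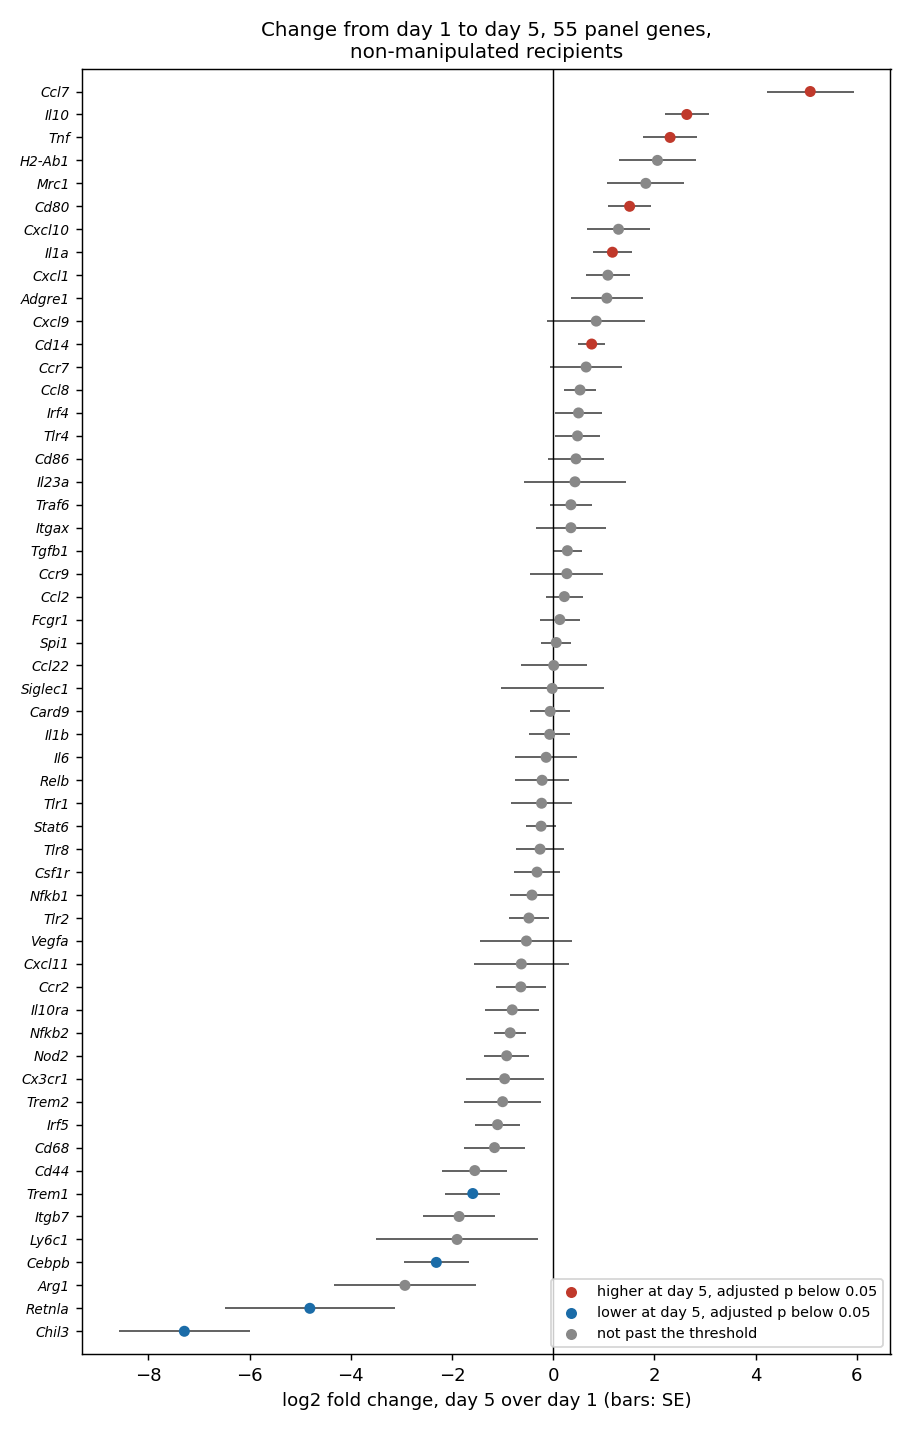
Log2 fold change from day 1 to day 5 (horizontal axis, bars are SE derived from the F test) for 55 of the 57 genes (vertical axis, sorted by change) in 5 day 1 and 4 day 5 non-manipulated recipients. The 6 genes in red were higher and the 4 in blue lower at day 5 with an adjusted p below 0.05, from 5.08 for Ccl7 to -7.29 for Chil3, and the 45 grey genes did not pass.

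Among the genes of Ly6C+ monocytes, 2 of the 5 described here fell (Chil3 and Trem1), 0 rose, and the median log2 change of the 5 was -1.59, against -0.07 over all genes. Over all 57 genes 10.5% rose and 8.77% fell, and the counts of this and each later list stand beside these shares. The lists are small and share genes, so Chil3 and Trem1 are each counted again below. No list was tested as a set.

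Chil3 encodes Ym1, a chitinase-like protein that Ly6C+ monocytes and alternatively activated macrophages make. The day 1 mice had scaled counts of 118305, 51650, 52490, 44639 and 26581 and the day 5 mice of 48.8, 1087, 164 and 201. The groups did not overlap, and the fall was 157-fold (log2 change -7.29 ± 1.29, adjusted p = 0.000102), although the 4 day 5 mice themselves spanned a wide range with mouse 2 highest. Without that mouse the log2 change was -8.74 (adjusted p = 0.00012). The Chil3 transcript has a close relative in the gene family (Chil4), and whether the probe separates them was not tested.

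Trem1, a receptor that amplifies inflammatory signals in monocytes and neutrophils, had a scaled count of 604, 504, 2593, 1114 and 246 in the day 1 mice and of 414, 360, 322 and 249 in the day 5 mice. The groups overlapped, because day 1 mouse 5 was lower than every day 5 mouse. The log2 change of -1.59 ± 0.54 had an adjusted p of 0.0457, which rose to 0.218 (log2 change -0.88) without day 1 mouse 3 and passed in 3 of the 9 fits that left out 1 mouse.

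Ly6c1, whose protein carries the Ly6C epitope and which has a near-identical neighbour (Ly6c2) that a probe may not separate, did not pass. Scaled counts were 14404, 1649, 1174, 1928 and 29887 at day 1, and 113, 37.6, 10359 and 12.99 at day 5. Of the 4 day 5 mice, 3 lay below every day 1 mouse, 2 of 4 were above background, and mouse 3 lay within the day 1 range. The log2 change was -1.90 ± 1.60 (adjusted p = 0.451) with mouse 3 and -7.47 ± 2.00 (adjusted p = 0.00863) without it.

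Ccr2 itself and Cd44, which binds the matrix component hyaluronan, were the remaining monocyte genes. Ccr2 had 44778 to 111982 scaled counts at day 1 and 27519 to 54222 at day 5, and its log2 change of -0.64 ± 0.50 did not pass (adjusted p = 0.433). Cd44 had a log2 change of -1.55 ± 0.64 that missed the threshold (adjusted p = 0.0756).

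Among 8 transcription factors of myeloid cells and inflammation, 1 fell (Cebpb) and 0 rose, with a median log2 change of -0.33. This count is near the share of all genes that fell (8.77%). Cebpb encodes C/EBP-beta, which drives monocyte and macrophage gene programmes. Its scaled count was 4120, 13024, 10689, 8417 and 2640 at day 1 and 1724, 1796, 1830 and 927 at day 5. The groups did not overlap and the level was 4.96-fold lower at day 5 (log2 change -2.31 ± 0.64, adjusted p = 0.0128). Without day 5 mouse 4, the lowest mouse, the log2 change was -2.12 and the adjusted p 0.0534.

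Spi1, which encodes the macrophage master regulator PU.1, had a log2 change of 0.06 ± 0.30 (adjusted p = 0.908). Irf5, linked to inflammatory macrophage activation, and Nfkb2, of the non-canonical NF-kB pathway, had log2 changes of -1.10 ± 0.44 (adjusted p = 0.066) and -0.85 ± 0.32 (adjusted p = 0.0556). Both missed the threshold here and passed with DESeq2, where 3 of the 8 factors fell.

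Of the 57 genes, 37 had a promoter sequence of the 250 bases before the transcription start in RefSeq (GRCm38.p6), 7 of them among the 11 genes that passed. These were searched on both strands for the loose C/EBP half-site pair TTNNGNAA, because Cebpb fell together with Chil3, and Chil3 and Tnf are shown as a gene that fell and a gene that rose. The letters occur in 36.8% of all 32851 promoters of this length and in 20 of the 37. Capitals mark the matches, and overlapping matches run together.
Chil3 (chr3:106167565-106167814, minus strand): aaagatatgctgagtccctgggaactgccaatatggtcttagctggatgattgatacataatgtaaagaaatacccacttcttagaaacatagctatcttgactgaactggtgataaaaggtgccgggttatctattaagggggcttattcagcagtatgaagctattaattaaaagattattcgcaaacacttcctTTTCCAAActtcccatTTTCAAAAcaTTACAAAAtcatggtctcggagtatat
Tnf (chr17:35202008-35202257, minus strand): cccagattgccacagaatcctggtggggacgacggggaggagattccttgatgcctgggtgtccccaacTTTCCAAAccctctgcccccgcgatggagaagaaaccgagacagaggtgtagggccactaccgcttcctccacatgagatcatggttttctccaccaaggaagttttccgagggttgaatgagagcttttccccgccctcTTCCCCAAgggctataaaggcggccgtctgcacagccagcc
Chil3 held 3 matches, all near the start, and Tnf held 2. The same promoters were also searched for the NF-kB consensus with its variable bases left free, AP-1 (TGANTCA) and PU.1 (GAGGAAGT), found in 4.11%, 6.75% and 2.44% of all promoters and in 6, 8 and 3 of the 37. Among the genes that passed and are described here, NF-kB letters were found in 0, AP-1 letters in Cd80 and Il1a, and PU.1 letters in Retnla. C/EBP matches were found both among genes that rose (Il1a and Tnf) and among genes that fell (Chil3, Retnla and Trem1), and a match is a run of letters, not a binding site.

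Interleukin-10 is the cytokine through which intestinal macrophages restrain inflammation, and Il10 was 6.25-fold higher at day 5. The day 1 mice had scaled counts of 3989, 2084, 3232, 4124 and 1219 and the day 5 mice of 15115, 33148, 15150 and 9795. Every day 5 mouse exceeded every day 1 mouse, with day 5 mouse 2 the highest (log2 change 2.64 ± 0.44, adjusted p = 7.07e-05). The other measured genes of this pathway did not pass. Il10ra, the receptor chain that binds interleukin-10, had a log2 change of -0.81 ± 0.53 (adjusted p = 0.321), and Tgfb1, the regulatory cytokine TGF-beta, had one of 0.28 ± 0.28 (adjusted p = 0.551).

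Of 5 proinflammatory cytokines, 2 rose (Tnf and Il1a), 0 fell, and the median log2 change was 0.43. Tnf, the cytokine tumour necrosis factor, had a scaled count of 14136, 12890, 27874, 34557 and 6098 at day 1 and of 80574, 182043, 54163 and 61846 at day 5. The groups did not overlap and the level was 4.95-fold higher at day 5 (log2 change 2.31 ± 0.54, adjusted p = 0.00269).

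Il1a, which encodes the alarmin interleukin-1-alpha, had a scaled count of 8129, 7601, 9567, 6941 and 4000 at day 1 and of 16363, 11113, 19867 and 17806 at day 5. The groups did not overlap, and the change was smaller at 2.25-fold (log2 change 1.17 ± 0.39, adjusted p = 0.0453). It was 1.01 to 1.31 when each mouse was left out in turn, passing in 3 of 9 fits with an adjusted p of at most 0.0938. Il1b, Il6 and Il23a, which encode the cytokines interleukin-1-beta, interleukin-6 and the specific chain of interleukin-23, had log2 changes of -0.07 ± 0.41, -0.14 ± 0.61 and 0.43 ± 1.01 with adjusted p from 0.813 to 0.911.

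Among the chemokines that recruit myeloid cells, 1 of 4 rose (Ccl7), 0 fell, and the median log2 change was 0.81. Ccl7 encodes MCP-3, a ligand of CCR2. Scaled counts were 61.0, 94.6, 80.9, 58.2 and 361 at day 1 and 9979, 792, 5631 and 1301 at day 5. The lowest day 5 mouse was above the highest day 1 mouse, day 1 mouse 5 lay apart from the other day 1 mice, and the level was 33.8-fold higher at day 5 (log2 change 5.08 ± 0.86, adjusted p = 7.07e-05). The log2 change was 4.30 without day 5 mouse 1 and 5.91 without day 1 mouse 5, and it passed in both fits.

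Cxcl1, a neutrophil attractant, had 131, 224, 207, 338 and 129 scaled counts at day 1 and 416, 427, 440 and 459 at day 5. The day 5 mice were close together and above all day 1 mice, and the log2 change of 1.08 ± 0.43 missed the threshold (adjusted p = 0.066). Ccl2, the other main ligand of CCR2, had a log2 change of 0.22 ± 0.36 (adjusted p = 0.732), and Ccl8 one of 0.53 ± 0.31 (adjusted p = 0.242).

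Of 3 interferon-response chemokines 0 passed with edgeR, 0 with DESeq2 and 0 with limma, and 0, 1 and 1 of them had an unadjusted p below 0.05 with these tools. Cxcl10, which attracts T cells through CXCR3, ran from 5731 to 79301 scaled counts at day 1 and from 37884 to 131385 at day 5, and its log2 change was 1.29 ± 0.63 (adjusted p = 0.143).

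**Figure D2:**
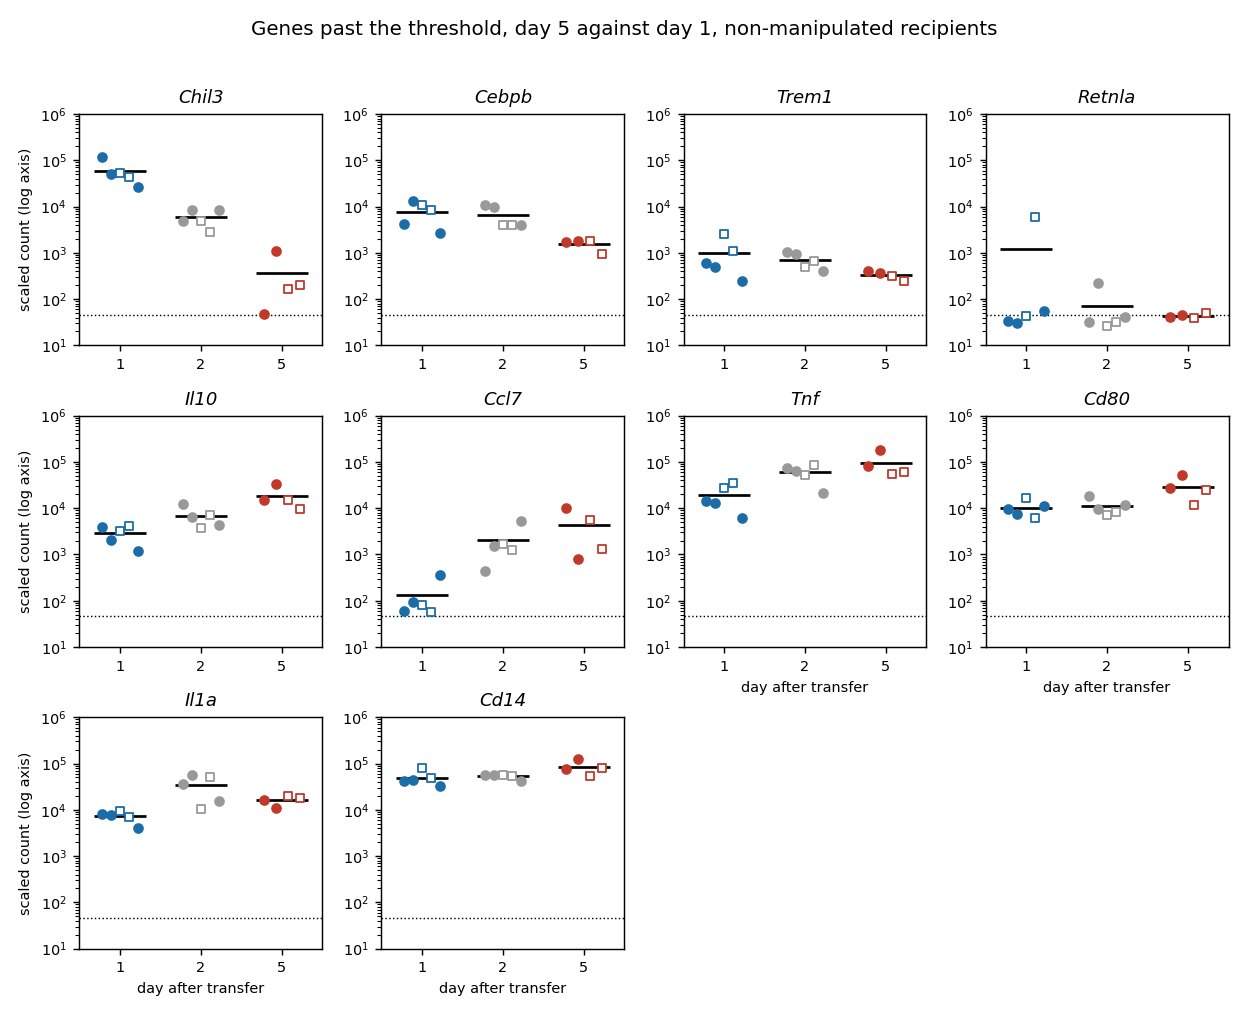
Scaled count (log axis) by day after transfer for 10 of the 11 genes past the threshold between days 1 and 5, in 5, 5 and 4 non-manipulated recipients at days 1, 2 and 5. Each point is a mouse, open squares are mice 3 and 4, bars are arithmetic means, and the dotted line is the highest scaled background of these lanes. Chil3, Cebpb, Il10, Ccl7, Tnf and Il1a do not overlap between days 1 and 5, and in Retnla 1 day 1 mouse at 6007 stands above the other values near background.

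Of the 3 genes for antigen presentation and co-stimulation, 1 rose (Cd80) and 0 fell, with a median log2 change of 1.51. Cd80 encodes the co-stimulatory ligand B7-1. Its scaled count was 9385, 7531, 16828, 6216 and 11214 at day 1 and 27366, 52841, 11830 and 24466 at day 5. The groups overlapped, with day 5 mouse 3 within the day 1 range, and the level was 2.85-fold higher at day 5 (log2 change 1.51 ± 0.43, adjusted p = 0.013). Without day 5 mouse 2, the highest, the log2 change was 1.05 and the adjusted p 0.11. Cd86, the related ligand B7-2, had a log2 change of 0.45 ± 0.55 (adjusted p = 0.611).

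H2-Ab1 encodes a chain of MHC class II, which presents antigen to CD4+ T cells. The day 1 mice had scaled counts of 110105, 85027, 71511, 74946 and 130407 and the day 5 mice of 206550, 428733, 369203 and 570147. Every day 5 mouse was above every day 1 mouse and the fitted level was 4.17-fold higher, but with the spread shared over all 27 samples the log2 change of 2.06 ± 0.76 missed the threshold (adjusted p = 0.0556). The same change passed when the 14 non-manipulated samples were fitted alone (SE 0.28, adjusted p = 3.3e-05), when the 9 compared samples were fitted alone (SE 0.35, adjusted p = 0.00102) and with DESeq2 (adjusted p = 0.0138). It passed in 4 of 16 alternatives in all and in 0 of the 9 fits without 1 mouse, with adjusted p up to 0.427 (the lanes of mice 1, 2 and 5) and 0.105 when scaled by total count. In the 5 manipulated mice of day 1, H2-Ab1 ranged from 533 to 53256 scaled counts.

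Among 7 genes for pattern recognition and its signalling, 1 rose (Cd14), 1 fell (Trem1, above), and the median log2 change was -0.06. Cd14 encodes the co-receptor for bacterial lipopolysaccharide. Scaled counts were 42598, 45138, 79680, 48944 and 32808 at day 1 and 75644, 126692, 52829 and 81551 at day 5. The groups overlapped through day 1 mouse 3 and day 5 mice 1 and 3, and the change was 1.69-fold (log2 change 0.76 ± 0.27, adjusted p = 0.0457). It passed in 2 of the 9 fits that left out 1 mouse, with the highest adjusted p, 0.234, without day 5 mouse 2 (log2 change 0.49).

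Of 9 genes of mature intestinal macrophages, 0 passed with edgeR, where 2 had an unadjusted p below 0.05. With DESeq2 2 passed (H2-Ab1 and Mrc1, both higher), and with limma 0 passed. The median log2 change of the 9 was 0.13, with 5 above and 4 below 0. Mrc1 encodes the mannose receptor CD206, an endocytic receptor of tissue macrophages. Its scaled count was 92.3, 216, 76.0, 56.9 and 77.1 at day 1 and 427, 414, 354 and 284 at day 5. The groups did not overlap, and the log2 change of 1.83 ± 0.76 missed the threshold (adjusted p = 0.0756) but passed in the 14 non-manipulated samples alone (adjusted p = 0.0178). It passed in 4 of 16 alternatives in all, with adjusted p up to 0.346, and in 0 of the 9 fits without 1 mouse.

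Adgre1, which encodes the macrophage antigen F4/80, also did not overlap. The day 1 mice had scaled counts of 764, 1632, 1779, 1447 and 393 and the day 5 mice of 3052, 2572, 2546 and 1858, a log2 change of 1.06 ± 0.71 (adjusted p = 0.321). The smallest day 5 value was close to the largest day 1 value.

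RNA of Cx3cr1, the fractalkine receptor by which resident gut macrophages are recognised, was not higher at day 5. Scaled counts were 479, 2567, 1998, 1885 and 337 at day 1 and 842, 618, 1079 and 444 at day 5. All 4 day 5 mice lay within the day 1 range (log2 change -0.96 ± 0.77, adjusted p = 0.441). In the paper's flow cytometry of transferred cells, the CX3CR1/GFP signal, a reporter and not an RNA count, rose gradually over these days. Cd68, a lysosomal protein of macrophages, ran from 4178 to 14793 at day 1 and from 3646 to 6045 at day 5 (log2 change -1.16 ± 0.60, adjusted p = 0.172).

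Csf1r ran from 19579 to 43088 scaled counts at day 1 and from 17990 to 30074 at day 5 (log2 change -0.32 ± 0.46, adjusted p = 0.688). Itgax, which encodes CD11c, and Fcgr1 had log2 changes of 0.35 ± 0.70 (adjusted p = 0.773) and 0.13 ± 0.40 (adjusted p = 0.834), and both turned negative when lanes were scaled by total count (-0.08 and -0.30) or with the authors' table (-0.10 and -0.34). The cells of both days had been sorted on the proteins of these genes, CD11c and CD64. Siglec1, the sialic acid receptor CD169, had a log2 change of -0.02 ± 1.02 (adjusted p = 0.986), with day 1 mouse 5 at 22975 and the other day 1 mice from 1809 to 4546. The day 5 mice were at 7213, 7373, 3520 and 9494, so the change near 0 depended on day 1 mouse 5.

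Of the 6 adhesion and homing genes described here 0 passed with edgeR, where 2 had an unadjusted p below 0.05, 2 fell with DESeq2 (Cd44 and Itgb7), 0 passed with limma, and the median log2 change was -0.80. Itgb7, the beta7 integrin chain that directs leukocytes to the gut, had a scaled count of 11834, 13339, 27143, 19045 and 14398 at day 1 and of 3514, 4575, 2497 and 8271 at day 5. The groups did not overlap and the level was 3.64-fold lower at day 5, with a log2 change of -1.86 ± 0.71 that missed the threshold (adjusted p = 0.0605). It passed in the 14 non-manipulated samples alone (adjusted p = 0.00605), with DESeq2 (adjusted p = 0.0164) and when lanes were scaled by total count (adjusted p = 0.0159). It passed in 6 of 16 alternatives in all and missed in the other 10, TMM scaling (adjusted p = 0.1) and the lanes of mice 1, 2 and 5 (adjusted p = 0.23) among them, and it passed in 0 of the 9 fits without 1 mouse. Ccr9, the receptor for the gut chemokine CCL25, had a log2 change of 0.27 ± 0.72 (adjusted p = 0.817).

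**Figure D3:**
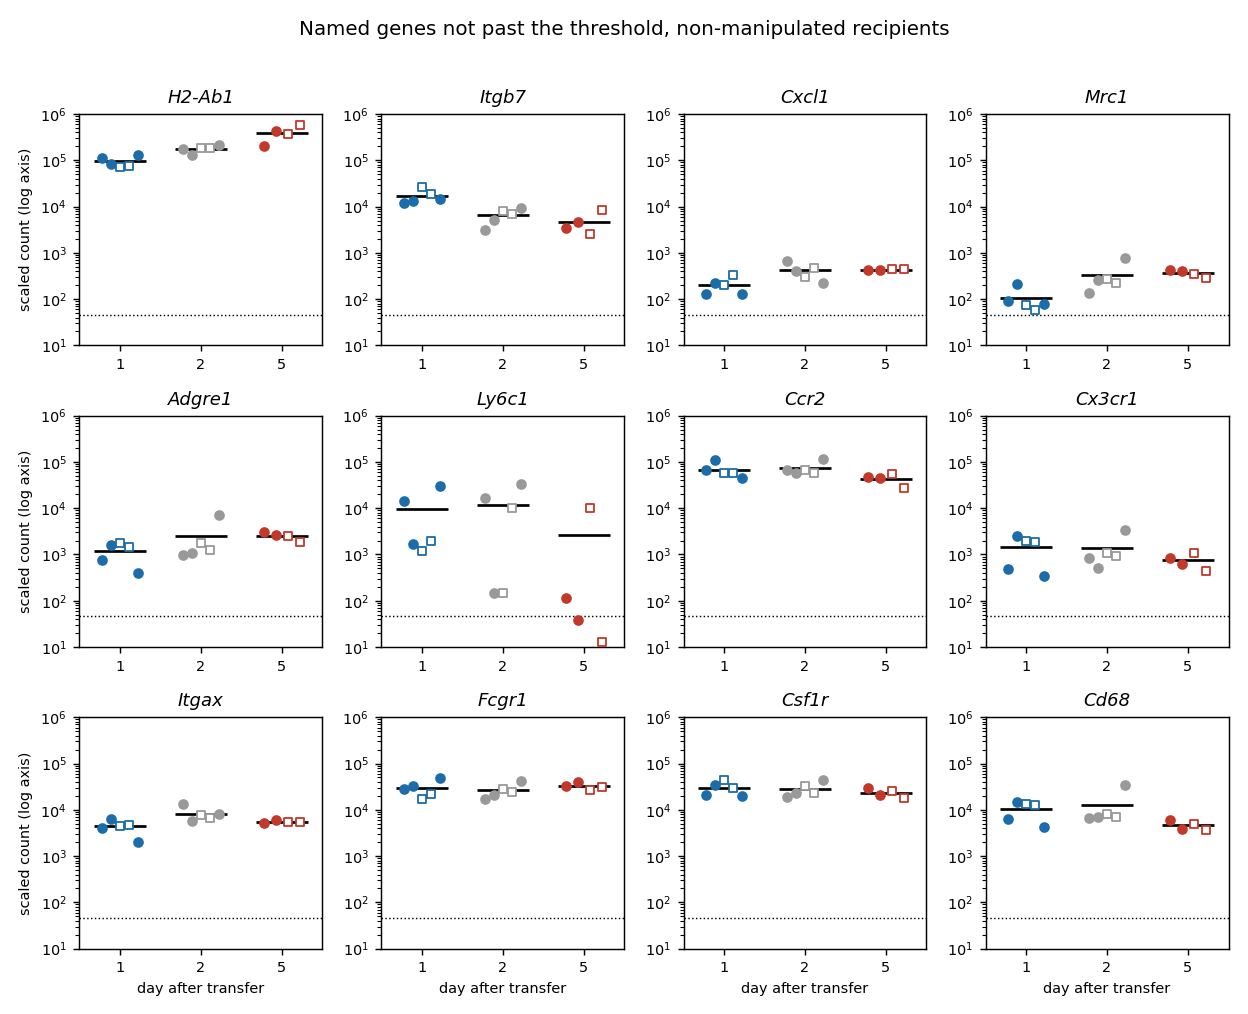
Scaled count (log axis) by day after transfer for 12 named genes that did not pass between days 1 and 5, drawn as in the plot of the genes that passed. H2-Ab1, Itgb7, Cxcl1, Mrc1 and Adgre1 do not overlap between days 1 and 5, and in Ly6c1 day 5 mouse 3 at 10359 lies far above the other 3 day 5 mice.

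Of 8 genes of alternative macrophage activation, 2 fell (Chil3 and Retnla), 0 rose, and the median log2 change was -0.62. Retnla encodes the secreted protein RELM-alpha. Its scaled count was 33.0, 30.5, 43.3, 6007 and 55.9 at day 1 and 41.2, 45.6, 38.8 and 49.8 at day 5. A single day 1 mouse, mouse 4, was high, 4 of 5 day 1 mice and 3 of 4 day 5 mice were above background, and the other 8 mice all lay between 30.5 and 55.9. The log2 change was -4.81 ± 1.68 (adjusted p = 0.0457) with that mouse and 0.11 ± 1.08 (adjusted p = 0.948) without it. Arg1, which encodes the arginine-consuming enzyme arginase 1, had a scaled count of 482, 315, 237, 183 and 3856 at day 1 and of 71.5, 124, 71.9 and 266 at day 5 (log2 change -2.93 ± 1.40, adjusted p = 0.14), and it fell with DESeq2.

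Samples of day 2 were used to place these changes in time. From day 1 to day 2, 8 genes passed (14%), 6 higher (10.5%; Ccl7, Ccr9, Il10, Il1a, Il23a and Tnf) and 2 lower (3.51%; Chil3 among them), and 6 of the 8 also passed from day 1 to day 5. From day 2 to day 5, 7 genes passed (12.3%), 2 higher (3.51%; Il10 and Cd80) and 5 lower (8.77%; Arg1, Cebpb, Chil3 and Il23a among them). These intervals share samples with the day 1 to day 5 comparison, so the values are given side by side.

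Chil3 changed by -3.32 ± 0.97 (adjusted p = 0.024) from day 1 to day 2 and by -3.98 ± 1.10 (adjusted p = 0.0272) from day 2 to day 5 on the log2 scale. It fell in both intervals, and the day 2 mice lay between the groups, from 2816 to 8476 scaled counts. Without day 5 mouse 2 the second change was -5.42 (adjusted p = 0.0141).

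Il10 also moved in both intervals, by 1.23 ± 0.41 (adjusted p = 0.0416) and then by 1.41 ± 0.43 (adjusted p = 0.0272). Ccl7 and Tnf passed in the first interval (3.97 ± 0.80, adjusted p = 0.00126, and 1.63 ± 0.51, adjusted p = 0.0304) and not in the second (1.11 ± 0.75, adjusted p = 0.335, and 0.68 ± 0.52, adjusted p = 0.401). Without day 1 mouse 5 or day 2 mouse 5 the first change of Ccl7 was 4.80 or 3.22, passing in both. Whether the 2 intervals differed for these genes was not tested. When each mouse was left out in turn, Ccl7 and Il1a passed the first interval in all 10 fits, while Il10 missed it in 7, Tnf in 5 and Chil3 in 2. In the second interval none of these 6 genes passed in all 9 such fits, Chil3 and Arg1 missing in 2, Il23a in 4, Cebpb in 5 and Il10 and Cd80 in 6.

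Cebpb and Cd80 passed in the second interval, by -2.04 ± 0.63 (adjusted p = 0.028) and 1.41 ± 0.43 (adjusted p = 0.0272), with -0.26 ± 0.56 (adjusted p = 0.871) and 0.10 ± 0.40 (adjusted p = 0.912) in the first. Il1a had its highest mean at day 2, with single mice at 10539 to 57989 scaled counts, and changed by 2.25 ± 0.39 (adjusted p = 0.00028) and then by -1.08 ± 0.40 (adjusted p = 0.0843).

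Il23a and Arg1 were high in some of the day 2 mice. Il23a had a scaled count of 878, 686, 50.2, 5933 and 61.1 in day 2 mice 1 to 5, a log2 change of 4.43 ± 1.09 (adjusted p = 0.00595) from day 1, and one of -4.0 ± 1.17 (adjusted p = 0.0272) to day 5. Without mouse 4 these were 2.57 (adjusted p = 0.0658) and -2.13 (adjusted p = 0.178). Arg1 had 70.0, 30600, 33769, 596 and 223 scaled counts in the same mice and fell by 6.62 ± 1.68 on the log2 scale to day 5 (adjusted p = 0.0272). The change was -6.03 without mouse 2 and -5.89 without mouse 3. Mice 2 and 3 carried the Arg1 level of day 2. The rise of Ccr9 at day 2 (2.32 ± 0.72, adjusted p = 0.0304) rested on mouse 5 at 3106, and was 0.40 (adjusted p = 0.623) without that mouse.

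The change from day 1 to day 5 was set against the same change in manipulated recipients, in the same model. In manipulated recipients 23 genes passed between days 1 and 5 (40.4%), 13 higher (22.8%) and 10 lower (17.5%). The difference between the changes passed for 11 of 57 genes (19.3%), 4 with the change in non-manipulated recipients higher (7.02%) and 7 with it lower (12.3%). Of these 11 genes, 5 also passed in non-manipulated recipients, Ccl7, Cd80, Chil3 and Retnla among them.

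Ccl7 changed by 5.08 ± 0.86 in non-manipulated and 0.18 ± 0.75 in manipulated recipients, a difference of 4.90 ± 1.13 (adjusted p = 0.00396) that was 4.12 to 5.73 when each mouse was left out. In the manipulated mice it was already 5106 to 25296 scaled counts at day 1, when the non-manipulated mice had 58.2 to 361. Cd80 changed by 1.51 ± 0.43 and -0.75 ± 0.43, a difference of 2.26 ± 0.61 (adjusted p = 0.0112), and its manipulated day 1 mice ran from 18931 to 51958.

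Chil3 fell in both arms, with a log2 change of -3.41 ± 1.06 in manipulated recipients and a difference of -3.89 ± 1.38 (adjusted p = 0.0476). The manipulated day 5 mice were far apart, at 15206, 13788, 140 and 1693 scaled counts. Without non-manipulated day 5 mouse 2 the difference was -5.33 (adjusted p = 0.0123).

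Cx3cr1 changed by -0.96 ± 0.77 in non-manipulated and by 3.74 ± 0.81 in manipulated recipients, a difference of -4.70 ± 1.13 (adjusted p = 0.00458), or -3.92 without manipulated day 5 mouse 4. The manipulated mice started at 47.5 to 180 scaled counts at day 1, below all non-manipulated mice, and reached 108, 656, 1854 and 3365 at day 5. Csf1r (-1.88 ± 0.66, adjusted p = 0.0476) differed in the same direction, as did Trem2, through which macrophages sense lipids (-3.91 ± 1.09, adjusted p = 0.0112).

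Il6 changed by -0.14 ± 0.61 in non-manipulated and by -4.20 ± 0.70 in manipulated recipients (difference 4.06 ± 0.88, adjusted p = 0.00396, or 4.96 without manipulated day 5 mouse 1), and in the non-manipulated mice of both days it lay near background, at 26.9 to 70.5 scaled counts. Ly6c1 differed by 6.67 ± 2.36 (adjusted p = 0.0476), which was 1.10 (adjusted p = 0.699) without non-manipulated day 5 mouse 3. The difference for Retnla, -10.28 ± 2.35 (adjusted p = 0.00396), came with 1 high mouse in each arm, non-manipulated day 1 mouse 4 and manipulated day 5 mouse 1 at 10423. It was -5.36 (adjusted p = 0.0188) without the former and -4.99 (adjusted p = 0.0445) without the latter.

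Il10, Tnf, Cebpb, Il1a, Trem1 and Cd14, which passed in non-manipulated recipients, did not pass the test of the difference. For Il10 the difference was 0.86 ± 0.60 (adjusted p = 0.313), for Tnf 1.45 ± 0.75 (adjusted p = 0.185) and for Cebpb -1.15 ± 0.84 (adjusted p = 0.323). For H2-Ab1 it was -0.77 ± 1.06 (adjusted p = 0.644). Of the 9 differences described here, 6 passed in all 18 fits that left out 1 mouse, and Ly6c1 missed in 12 and Chil3 and Csf1r in 13 of them. Retnla is among the 6, but leaving out 1 mouse cannot remove both of its high mice, 1 in each arm. For Retnla these fits therefore do not show stability. Of the 9, Il6 alone also passed in all 14 other alternatives. Ccl7 missed in 1 of these 14, Cd80, Cx3cr1 and Trem2 in 2 each, Retnla in 5, Chil3 in 6, and Csf1r and Ly6c1 in 7 each.

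**Figure D4:**
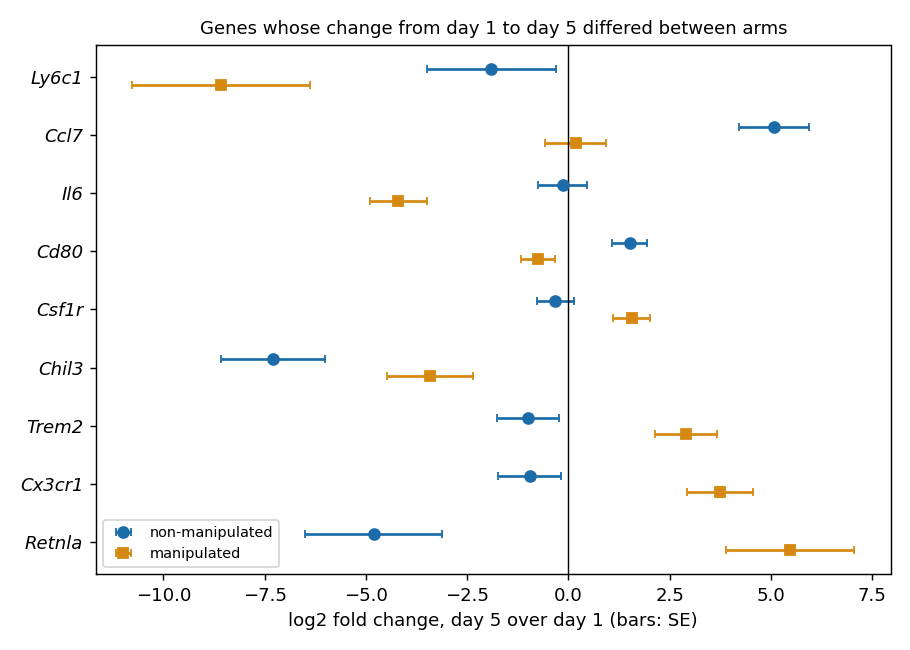
Log2 fold change from day 1 to day 5 (horizontal axis, bars are SE) in non-manipulated (circles) and manipulated (squares) recipients for 9 of the 11 genes whose change differed between arms with an adjusted p below 0.05. Ccl7 and Cd80 passed in non-manipulated and not in manipulated recipients, at 5.08 and 1.51 against 0.18 and -0.75, and Cx3cr1 has its marks on opposite sides of 0, at -0.96 and 3.74.

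The housekeeping genes themselves were lower at day 5, which touches every scaled level. Their geometric mean was 35170 ± 5152 (SD, n = 5) at day 1 and 17839 ± 7195 (SD, n = 4) at day 5, 1.97-fold lower, and no day 5 mouse reached the lowest day 1 mouse (27566). In a two-sided exact permutation test over all divisions of the 9 mice into 5 and 4 this gave p = 0.00794, the smallest this design allows, and 0.0318 after adjustment over 8 technical measures. The total count of the panel genes was 1.52-fold lower at day 5 (exact p = 0.0159, adjusted 0.0424). Relative to that total, the housekeeping geometric mean was 3.25% ± 0.217 at day 1 and 2.45% ± 0.578 at day 5 (exact p = 0.00794, adjusted 0.0318). The Actb to Gapdh ratio was 1.78 ± 0.205 at day 1 and 1.28 ± 0.364 at day 5 (exact p = 0.0476, adjusted 0.0741), and the part of these shifts in the results was not tested.

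Scaling by another reference moved the median of the genes. The median log2 change of the 57 genes was -0.07 with the housekeeping genes, -0.50 with the total count, -0.61 with the authors' normalized table, -0.20 without Rpl19 and 0.01 with TMM. The genes that passed divided into 6 higher and 5 lower with the housekeeping genes, 3 and 8 with the total count, 3 and 8 with the authors' table, 4 and 6 without Rpl19, and 7 and 3 with TMM. The authors' table was tested with limma and the other scalings with edgeR, so its values differ in test as well as in scaling. Limma (pseudocount 1) on the housekeeping-scaled counts gave 5 higher and 3 lower, with a median of -0.07. Cd80, Il1a and Cd14 did not pass with the total count (adjusted p 0.0555, 0.155 and 0.43). Chil3, Il10, Ccl7 and Tnf passed under each of these scalings.

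**Figure D5:**
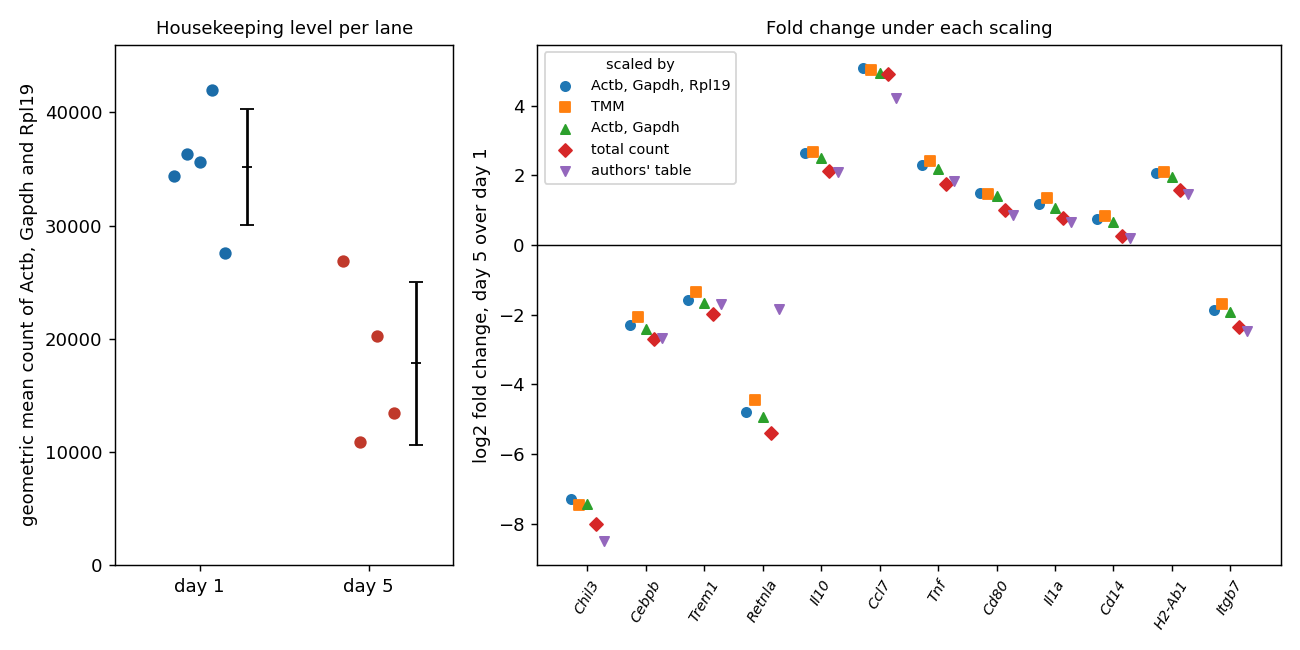
Left, the geometric mean count of Actb, Gapdh and Rpl19 per lane at day 1 (5 mice) and day 5 (4 mice), with mean and SD, lower in every day 5 mouse. Right, the log2 fold change from day 1 to day 5 of 10 of the 11 genes that passed and of H2-Ab1 and Itgb7 under 5 scalings. The authors' table was fitted with limma and the other scalings with edgeR. No gene changed side of 0. The total count and the authors' table gave lower values than the housekeeping genes for all 12 genes, except for Retnla with the authors' table (-1.83). With limma (pseudocount 1) on the housekeeping-scaled counts Retnla was at -1.30.

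The lanes of mice 3 and 4 held deposited values in whole multiples of a common non-integer factor and the other lanes did not, and both kinds are present at each day. Within the lanes of mice 3 and 4, 19 genes passed (5 higher and 14 lower), and within the lanes of the other mice 8 passed (5 higher and 3 lower). Chil3 changed by -8.05 within the former and -6.85 within the latter, Il10 by 1.76 and 3.31, Ccl7 by 5.64 and 4.97, and Tnf by 0.89 and 3.57, and all of these passed. Cebpb passed within the first set alone (-2.79, against -1.91 with adjusted p = 0.241), and Cd80 within the second alone (2.10, against 0.66 with adjusted p = 0.387).

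Trem1 (-2.70 and -0.22, adjusted p = 0.969 in the latter) and Retnla (-6.09 and 0.12, adjusted p = 0.986 in the latter) fell within the lanes of mice 3 and 4 alone, and Cd14 rose within the other lanes alone (adjusted p = 0.0439, against 0.06 with adjusted p = 0.911 in mice 3 and 4). Ly6c1 had opposite signs, 1.74 (adjusted p = 0.581) and -7.65 (adjusted p = 0.0113). Whether the changes differed between the sets of lanes was not tested.

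The spread between mice is given as a description, with no test. The median over genes of the SD of the log2 scaled count was 0.68 at day 1 and 0.59 at day 5, and 22 genes spanned more than 4-fold among the day 1 mice against 7 among the day 5 mice, which were 1 fewer. Day 1 mouse 5 had the highest day 1 value of Ly6c1 (29887), Siglec1 (22975), Cxcl10 (79301) and Arg1 (3856), and the lowest of Cebpb (2640), Cd68 (4178), Trem2 (394) and Il10 (1219). Without this mouse 13 genes passed between days 1 and 5, including Chil3, Il10, Ccl7 and Tnf, and Cd14 and Il1a were no longer among them.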

How the data were processed

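Donor monocyte-derived cells of 27 recipients, 100 cells each, had been reverse-transcribed, pre-amplified for 16 cycles and run on the nCounter by the authors, 1 lane per mouse; the study pooled several experiments, and the labels do not give which mouse came from which. The deposited raw table held barcode counts, not normalized, for 15 lanes (1 of them, a manipulated day 1 lane, in multiples of 2 and divided by 2). For the 12 lanes of mice 3 and 4 the deposited values had the unit of expected counts, each a whole multiple of a common factor of about 4/3 within 0.001, and were divided by it. The reason for the multipliers and the software that wrote the raw table are not given in the sources used here. The normalized table held a score made by the authors, the raw value times 1 factor per sample (spread at most 0.154%). It served as an alternative, tested with limma on log2(score + 1). Of 67 panel genes, 10 were blank and 57 were used. The paper states that 10 genes were left out for low detection in all samples. Probe identifiers were matched to RefSeq symbols for 69 names by accession and 3 by symbol, and Adgre1 is listed under its older name Emr1. Replicates were separate mice.

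Library size was the geometric mean of Actb, Gapdh and Rpl19. A scaled count is the count divided by that of its lane and multiplied by its mean over all samples. The test on counts was edgeR's quasi-likelihood F test, taken as two-sided (version 4.0.16, R 4.3.3). Its model held all 27 samples and 6 group means, with a common coefficient of variation of 0.685 and 21 degrees of freedom left, and used Benjamini-Hochberg adjustment over the 57 genes. The SE of an edgeR log2 change was not estimated by the model. It was derived from the test, as the absolute log2 change divided by the square root of the F statistic. The script was tested on simulated data. Pre-amplified counts are not independent molecules. Technical measures were compared by exact permutation tests (scipy 1.17.1). Alternatives were other scalings, DESeq2 1.42.0, limma 3.58.1 on log2(scaled count + 1) or + 50, background subtraction, a filter on low counts, fewer samples, lane sets, a replicate block and leaving out each mouse.

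Named genes were those past the threshold, those whose day 1 and day 5 mice did not overlap, and a set of genes of monocyte to macrophage maturation (Ly6c1, Ccr2, H2-Ab1, Cx3cr1, Itgax, Fcgr1, Mrc1, Adgre1, Csf1r, Cd68 and Il10). Others are named with their list. Of the 57 genes, 2 entered the fits and the counts over all genes and are not reported here. The comparison and the lists were chosen with earlier results of these data known.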

Additional observations from a re-analysis of the deposited data

Results flagged for a closer look

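In 44 groups of 4 or 5 mice examined for a value far from the rest (the 22 named genes at days 1 and 5), 3 values stood out, where chance gives about 1 in 20. Ccl7 was 361 scaled counts in day 1 mouse 5, against 58.2 to 94.6 in the other day 1 mice. Cebpb was 927 in day 5 mouse 4, against 1724 to 1830 in the other 3. Retnla was 6007 in day 1 mouse 4, against 30.5 to 55.9.

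The change from day 1 to day 5 differed between non-manipulated and manipulated recipients for 9 genes described here by the edgeR test of the difference. It was higher in non-manipulated recipients, on the log2 scale, for Ly6c1 by 6.67, Ccl7 by 4.90, Il6 by 4.06 and Cd80 by 2.26. The non-manipulated minus manipulated difference was -10.28 for Retnla, -4.70 for Cx3cr1, -3.91 for Trem2, -3.89 for Chil3 and -1.88 for Csf1r.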

How the results depend on the processing

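Il10, Ccl7, Chil3 and Tnf passed in all 16 alternatives and in all 9 fits without 1 mouse, and the other 6 called genes described here did not. Against 11 genes, DESeq2 called 18, limma with a pseudocount of 50 called 7 and the lanes of mice 3 and 4 called 19. Leaving out 1 mouse gave 6 to 13 genes, with 7 without day 1 mouse 4 or day 5 mouse 1 or 2 and 6 without day 5 mouse 4. With the authors' table, tested with limma and not edgeR, the difference between arms passed for 2 genes and not 11, day 1 to 2 for 4 and not 8, and day 2 to 5 for 3 and not 7. Leaving out 1 mouse gave 8 to 11 differences between arms.

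Same-numbered day 1 and day 5 mice did not deviate together (r -0.27 to -0.07, 0 of 4 day 5 mice closest to their own number). With the replicate number as a block 7 genes passed, and 1 from day 2 to 5, a fit added after seeing the data.

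Signs turned for Retnla (0.12 in the lanes of the other mice; -5.13 to 0.11 on leaving out 1 mouse), Ly6c1 (1.74 in the lanes of mice 3 and 4), Csf1r (0.04 in the other lanes), Itgax (-0.08 by total count, -0.10 with the authors' table) and Fcgr1 (-0.30, -0.34, and -0.01 in the other lanes; -0.01 to 0.37 on leaving out 1 mouse). The cause was not tested. The filter on low counts removed no gene, and DESeq2 gave no adjusted p for Retnla. What passed depended on the spread of each gene as well as on its change.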
